A study of Mus musculus with 14 samples.

Results

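A set of 47 genes that fold, modify, export and quality-control secreted proteins in the endoplasmic reticulum (ER) was examined in cultured clones of mouse bone marrow stromal cells. The set is a list of gene names grouped by function: 10 chaperones and co-chaperones, 4 disulfide isomerases, 8 stress sensors and transcription factors, 4 components of ER-associated degradation, 5 genes of translocation and export, 6 of prolyl hydroxylation, 5 lysyl hydroxylases and FK506-binding isomerases, and 5 lysyl oxidases. The 47 genes were drawn from 30503 genes in the count table, and every one of them was among the 17358 genes that passed the filter on low counts and were tested. RNA was sequenced in bulk from 14 clones, each grown from 1 red fluorescent (tdTomato+) colony of cultured femoral bone marrow cells that was picked with a cloning cylinder. All mice carried Fgfr3-creER, a tamoxifen-inducible Cre driven by Fgfr3, and 1 R26R(tdTomato) reporter allele, and received tamoxifen at postnatal day 21 (P21). The 5 Fgfr3-WT clones came from cells isolated at P23 and were harvested at passage 8. These control mice had no floxed Trp53 allele. The 5 Fgfr3-p53 cKO P28 clones, in which both Trp53 alleles were floxed, came from cells isolated at P28 and were also harvested at passage 8. The 4 Fgfr3-p53 cKO P4M clones had the same genotype, came from 4-month-old mice and were harvested at passage 6 to 8. Hereafter the groups are called WT, P28 and P4M.

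The labels do not say which animals the clones came from, so the spread between clones may include clones of 1 animal, and each clone reflects the expansion of 1 colony. The WT libraries carry one submission number and the cKO libraries another, so genotype, age at isolation and library submission cannot be told apart in any comparison with WT. Total counts per clone ranged from 25688946 to 38958693 in WT (median 27447973), from 37606033 to 48648618 in P28 (median 45728793) and from 43757832 to 52857424 in P4M (median 48642222). Mitochondrial genes took 2.18% to 3.78% of counts in WT, 2.20% to 2.31% in P28 and 2.61% to 3.73% in P4M.

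The deleted gene was checked first. Trp53, which encodes p53, stood at 55.4, 49.9, 68.2, 50.4 and 51.1 CPM in WT clones 1 to 5, at 2.47, 2.84, 2.37, 2.48 and 2.18 CPM in P28 clones 1 to 5, and at 2.08, 2.37, 1.72 and 2.22 CPM in P4M clones 1 to 4. Every cKO clone was far below every WT clone, as its label states. CPM values are counts scaled to a common library total after TMM scaling, and serve to compare clones for 1 gene. Markers of other cells were also examined. The 5-gene endothelial list summed to 0.03 to 0.25 TPM in WT, 0.15 to 1.31 TPM in P28 and 0.75 to 3.26 TPM in P4M. Within it Cdh5 had no count in any of the 14 clones and Emcn at most 1 count in a clone, while Kdr, the most abundant, reached 12.6 CPM and was called higher in both cKO groups against WT. Ptprc, the pan-leukocyte gene, had at most 6 counts in a clone. The 7-gene haematopoietic list, most abundant in Lyz2 and Cd68, summed to 22.9 to 165 TPM in WT, 5.37 to 34.5 TPM in P28 and 6.85 to 11.9 TPM in P4M. TPM values are scaled to gene length as well as to the library total, and serve to compare or add up genes. The 6-gene skeletal stroma list summed to 97.0 to 268 TPM in WT, 349 to 863 TPM in P28 and 232 to 408 TPM in P4M. Of its genes, Pdgfrb (233 to 621 CPM), Prrx1 and Pdgfra were detected in every clone, and Cxcl12 had no count in 1 WT clone. Fgfr3, which drives the Cre, was lower in all cKO (-2.35 ± 0.61, edgeR adjusted p = 0.0067). Lepr was higher in all cKO (edgeR adjusted p = 0.00085), at 0 to 0.277 CPM in WT and up to 126 CPM in cKO clones.

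Marker lists were compared by summed TPM and by edgeR. In all cKO, 5 of 6 osteoblast and 2 of 2 tested osteocyte genes were called higher, and 4 of 4 tested chondrocyte genes lower. Of 4 smooth muscle and pericyte genes 3 were called higher and 1 lower, and of 3 tested adipocyte genes 0 were called. All tested genes gave 23.1% higher and 25.7% lower. In P28 against WT 0 of 2 osteocyte genes were called, where all tested genes gave 19.2% higher and 19.7% lower. Between P4M and P28 0 of 6 osteoblast genes were called, 2 of 2 tested osteocyte genes were higher in P4M and 1 of 4 tested chondrocyte genes was lower. The background there was 3.34% higher and 3.88% lower, and the other marker lists held no call. Summed over 6 osteoblast genes, led by Col1a1, the level was 18.7 to 449 TPM in WT, 4104 to 7138 TPM in P28 and 3818 to 16693 TPM in P4M. The 5-gene chondrocyte list, led by Col2a1, ran from 219 to 5788 TPM in WT, from 60.6 to 468 TPM in P28 and from 8.00 to 16.8 TPM in P4M. The 4-gene smooth muscle and pericyte list, led by Acta2, gave 0.86 to 83.0 TPM in WT, 1456 to 3619 TPM in P28 and 338 to 515 TPM in P4M. The 4-gene osteocyte list gave 0.15 to 1.22 TPM in WT, 0.53 to 3.48 TPM in P28 and 1.38 to 107 TPM in P4M. The 5-gene adipocyte list, led by Fabp4, ran from 15.1 to 112 TPM in WT and stood at 21.4, 16.2, 27.1, 210.2 and 467 TPM in P28 clones 1 to 5 and at 28.2, 13.0, 236 and 24.7 TPM in P4M clones 1 to 4, with Adipoq at most at 4 counts and Plin1 at most at 2. Whether these differences in marker lists contributed to the values below was not tested. WT clone 1 stood apart by very low Lox and Loxl1, WT clone 5 was the only WT clone with substantial Col1a2, P4M clone 1 had the highest summed TPM of the 10 chaperones among the cKO clones, and P4M clone 2 the lowest.

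Proteins bound for the cell surface or the matrix enter the ER through the Sec61 channel, are folded by chaperones such as BiP (the product of Hspa5) and by disulfide isomerases, and leave in COPII-coated vesicles. Misfolded proteins are returned to the cytosol for degradation, and their accumulation engages the sensors ATF6, IRE1 and PERK, which raise chaperone synthesis and restrain translation in the unfolded protein response. Procollagen has further needs, since its chains are hydroxylated on proline and lysine before the triple helix forms, and lysyl oxidases crosslink the fibrils outside the cell. Osteoblasts secrete large amounts of type I collagen and chondrocytes of type II collagen, so this machinery is a standing part of both cell types.

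The DNA motifs through which the unfolded protein response is known to act are shown first because they link several of the chaperone genes. RefSeq promoter windows (GRCm38.p6, 250 bases before to 50 bases after the annotated start, 300 bases in all) were found for 36 of the 47 genes. The windows were searched on both strands for the ER stress response element (ERSE: CCAAT, 9 bases of any kind, then CCACG), for ERSE-II (ATTGG, 1 base, then CCACG) and for the unfolded protein response element (UPRE: TGACGTGG). ERSE and ERSE-II share the letters CCACG, and the reverse strand of UPRE contains them too. Each window below is read in the direction of the motif, with the fixed motif letters in capitals and 5 flanking bases on each side.
Hspa5: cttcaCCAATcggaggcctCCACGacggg (chr2:34772020-34772048, plus strand)
Hsp90b1: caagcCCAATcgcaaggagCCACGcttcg (chr10:86705633-86705661, minus strand)
Hsp90b1: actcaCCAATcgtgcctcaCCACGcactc (chr10:86705528-86705556, plus strand)
Calr: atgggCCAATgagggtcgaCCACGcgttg (chr8:84847070-84847098, plus strand)
Canx: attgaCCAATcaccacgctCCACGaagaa (chr11:50325795-50325823, minus strand)
Creld2: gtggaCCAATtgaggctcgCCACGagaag (chr15:88819515-88819543, minus strand)
Dnajc3: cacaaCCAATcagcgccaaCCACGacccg (chr14:118937822-118937850, plus strand)
Pdia6: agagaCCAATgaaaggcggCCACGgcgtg (chr12:17266486-17266514, plus strand)
Syvn1: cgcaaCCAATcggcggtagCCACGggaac (chr19:6046527-6046555, plus strand)
Herpud1: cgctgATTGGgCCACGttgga (chr8:94386372-94386392, plus strand, ERSE-II)
Sec24d: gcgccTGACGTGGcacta (chr3:123267465-123267482, plus strand, UPRE)

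The ERSE was thus present in 8 of the 36 genes with a window (22.2%), compared with 37 of all 27025 genes in the reference. Counted by window, it was in 39 of all 32851 promoter windows (0.119%). The 47 genes include textbook targets of the unfolded protein response, so this share follows in part from how the list was made and is given as a description. Its nearest base lay between 26 bases (Syvn1) and 144 bases (Calr) before the RefSeq start in the genes with 1 match. Hsp90b1, with 2 matches, had them 194 and 89 bases before it. The gene spans given below are from GENCODE and can begin before the RefSeq start. For Hspa5 and Sec24d the printed motif therefore lies inside the span. ERSE-II was found in Herpud1 alone among the 36 (12 windows in all, 0.0365%), and UPRE in Sec24d and Sec23a (222 windows in all, 0.676%). The fold changes of the 8 genes with an ERSE are returned to below. No window was given for Sec61a1, Atf6, Loxl2, Loxl3, Lox, Fkbp10, Creb3l1, Hyou1, Manf, Loxl1 and Plod2.

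In P28 more of the 47 genes fell than rose, whereas in P4M the share that fell was close to that of all tested genes. In the mean of both cKO groups, 5 genes were higher (10.6%) and 16 lower (34%) (edgeR quasi-likelihood test, Benjamini-Hochberg adjusted p below 0.05 over all 17358 genes), against a background in which 23.1% of all tested genes were called higher and 25.7% lower. In P28 alone, 4 were higher (8.51%) and 16 lower (34%), with a background of 19.2% higher and 19.7% lower. In P4M, 7 were higher (14.9%) and 10 lower (21.3%), with a background of 22.3% and 23.6%. Between P4M and P28, 6 were higher (12.8%) and 1 lower (2.13%) (background 3.34% and 3.88%), while 14 of the 47 (29.8%) had an unadjusted p under 0.05, close to the 25.8% of all tested genes. The median log2 fold change of the 47 genes was -0.40 in all cKO, -0.60 in P28 and -0.20 in P4M, where the medians over all tested genes were -0.05, -0.02 and -0.06. The comparisons with WT share the WT clones and so are not independent of each other. In bulk RNA, fewer cells expressing a gene and less of its RNA per cell cannot be told apart. The split between higher and lower differed by limma on log2(TPM + 1), an alternative in which both the test and the unit change. Limma called 8 higher and 9 lower in all cKO, 7 and 8 in P28, 7 and 8 in P4M, and 3 and 1 between P4M and P28. With each clone left out in turn, the number lower in P28 ranged from 12 to 21 and the number higher between P4M and P28 from 1 to 7. The latter was 1 without P28 clone 3 or P4M clone 4, 2 without P28 clone 1 or P4M clone 1 and 3 without P4M clone 2.

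**Figure D1:**
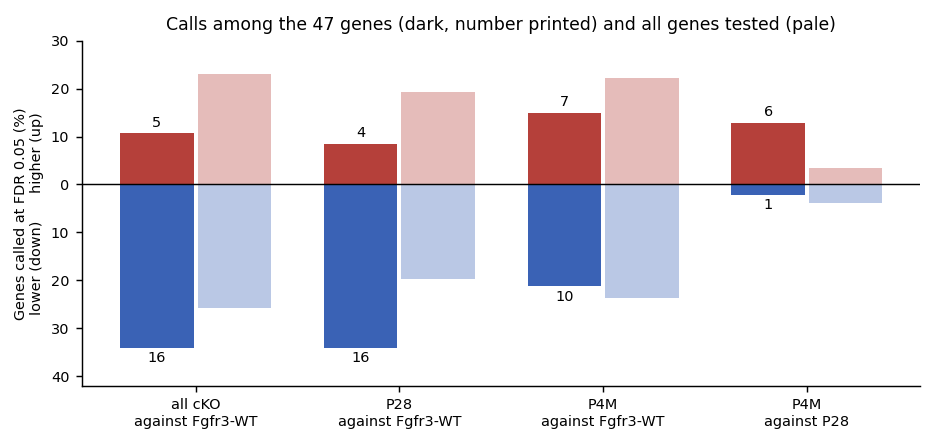
Share in percent of the 47 genes (dark bars, with the number of genes printed) and of all 17358 tested genes (pale bars) called higher (upward, red) or lower (downward, blue) in each of the 4 comparisons, by edgeR at an adjusted p below 0.05. In P28 against WT the dark bars hold 4 genes higher and 16 lower, and between P4M and P28 they hold 6 higher and 1 lower.

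**Figure D2:**
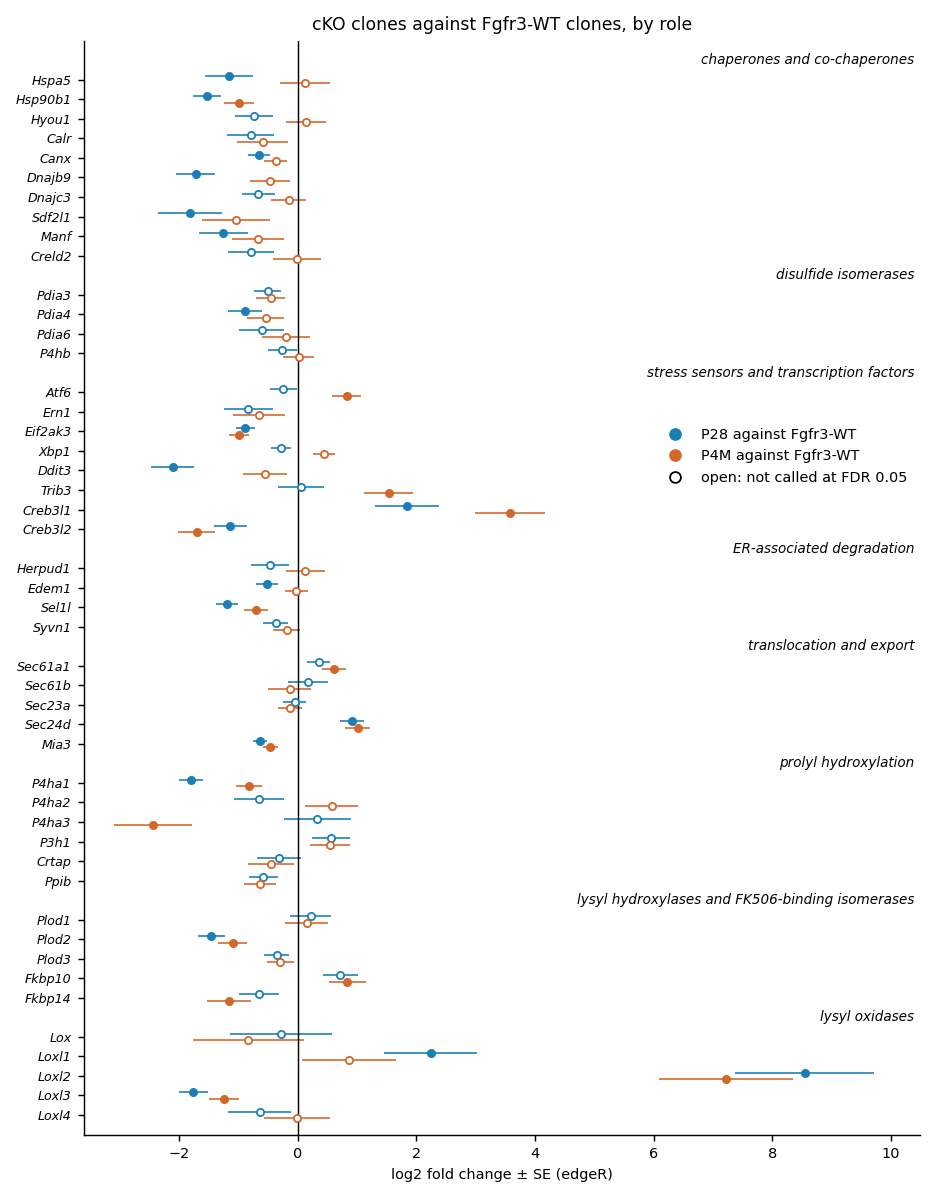
Log2 fold change against WT of each of the 47 genes in P28 (blue) and P4M (orange), with bars of 1 standard error and genes grouped by role. Filled points passed the edgeR test and open points did not. Loxl2 lies farthest to the right (8.55 in P28), and all 10 chaperones lie to the left of 0 in P28.

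In levels, chaperones were the most abundant of the 47 genes. The highest median TPM values in WT were 1654 for Hsp90b1, 1182 for Calr, 1119 for Hspa5 and 1052 for Ppib, and the lowest was 0.10 for Loxl2. The 10 chaperones and co-chaperones together had 4206, 7403, 9513, 5401 and 4239 TPM in WT clones 1 to 5. P28 clones 1 to 5 had 2857, 3107, 3338, 3976 and 3996 TPM, and P4M clones 1 to 4 had 8325, 2284, 4260 and 4518 TPM. Every P28 clone was below every WT clone in this sum, whereas P4M spanned the range from below P28 to well within WT.

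Chaperones bind unfolded chains, and co-chaperones recruit or regulate them. In P28, 6 of the 10 were lower than in WT and none was higher (median log2 fold change -0.98), against 19.7% of all tested genes lower. In P4M, 1 of the 10 was lower (median -0.42), below the background of 23.6%. Hspa5 (chr2:34771970-34777547), which encodes BiP, stood at 1344, 2773, 4176, 1905 and 1061 CPM in WT clones 1 to 5. It was at 875, 1065, 883, 1040.4 and 1174 CPM in P28 clones 1 to 5, and at 4407, 934, 2198 and 2300.3 CPM in P4M clones 1 to 4. P28 was uniformly low, overlapping WT only at WT clone 5, while P4M included both the highest value of all clones and one within the P28 range. The log2 fold change was -1.16 ± 0.40 (SE) in P28 (edgeR adjusted p = 0.036) and 0.13 ± 0.42 in P4M (adjusted p = 0.83). The P4M value turned negative, to -0.31, without P4M clone 1, to -0.03 without WT clone 1 and to -0.05 without WT clone 5. The P28 call was lost without WT clone 2 or 3 or without any one of P28 clones 1 to 4, with a highest adjusted p of 0.104 (edgeR) without WT clone 3. It was also lost with no scaling factor (adjusted p = 0.052), with no count filter (adjusted p = 0.054) and by limma on log2(TPM + 1) (adjusted p = 0.14).

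Hsp90b1 (chr10:86690209-86705509), the ER form of HSP90, gave the lowest adjusted p among the chaperones. Its values were 3003, 3260.4, 3929.8, 3343 and 2542 CPM in WT, 979.8, 1109, 1133, 1202 and 1164 CPM in P28, and 2625, 866, 1569.8 and 1425 CPM in P4M. P28 lay wholly below WT, and P4M did so except for P4M clone 1, which was just above the lowest WT clone. Hsp90b1 fell by 1.52 ± 0.24 on the log2 scale in P28 (edgeR adjusted p = 0.00041) and by 0.99 ± 0.25 in P4M (adjusted p = 0.0066). Both calls held in all 14 fits that left out 1 clone. Dnajb9, a BiP co-chaperone also called ERdj4, was at 87.8, 110.0, 152, 86.4 and 29.1 CPM in WT and at 29.0, 29.5, 33.3, 23.6 and 26.1 CPM in P28. It was at 96.1, 58.8, 55.7 and 59.5 CPM in P4M. WT clone 5 sat within the P28 range, and every P4M clone was above every P28 clone. Dnajb9 fell by 1.72 ± 0.33 in P28 (edgeR adjusted p = 0.0014) and did not pass the test in P4M (-0.46 ± 0.34, adjusted p = 0.28), where it was called lower without WT clone 5 (-0.69, adjusted p = 0.022).

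Canx, the membrane-bound lectin chaperone calnexin, fell by 0.65 ± 0.18 in P28 (edgeR adjusted p = 0.013). It ran from 538 to 718 CPM in P28 and from 687 to 1296 CPM in WT, so that WT clone 5 again lay in the P28 range. Sdf2l1, a partner of the BiP and DnaJ cycle, fell by 1.82 ± 0.54 (edgeR adjusted p = 0.018), from 13.6, 66.0, 97.9, 82.4 and 39.6 CPM in WT to 13.98, 13.1, 14.7, 23.3 and 20.03 CPM in P28. Here WT clone 1 was as low as P28. Manf, a secreted ER stress protein, fell by 1.25 ± 0.41 (edgeR adjusted p = 0.029), with WT clone 1, at 93.4 CPM, inside the P28 range of 83.9 to 149.8 CPM and the other WT clones at 257 to 426 CPM. The Manf call in P28 was lost without WT clone 2 or 3 or without any one of P28 clones 1 to 3 (highest adjusted p 0.070). Hyou1, Calr, Dnajc3 and Creld2 had negative P28 values that missed the threshold, from -0.79 for Calr to -0.66 for Dnajc3. In the mean of both cKO groups 5 chaperones (50%) were lower, the 6 above without Hspa5, against 25.7% of all tested genes. The Canx, Sdf2l1 and Manf calls in that comparison were lost without WT clone 4 (adjusted p = 0.053), without WT clone 3 (adjusted p = 0.060) and in 10 of the 14 fits, respectively (edgeR). The Manf call there was lost without any one of WT clones 2 to 5, P28 clones 1 to 3 or P4M clones 2 to 4, reaching an adjusted p of 0.11 without WT clone 3, and also with no scaling factor (adjusted p = 0.051) and no count filter (adjusted p = 0.068). By limma on log2(TPM + 1) the Canx, Sdf2l1 and Manf calls were lost in P28 (adjusted p 0.12, 0.080 and 0.0999) and in all cKO (adjusted p 0.11, 0.066 and 0.082), as was Dnajb9 in all cKO (adjusted p = 0.055).

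The chaperone count depended on single clones and differed by limma on log2(TPM + 1), which changes both the test and the unit. It was 4 to 9 lower in P28 when 1 clone was left out, the 9 without P4M clone 1 and the 4 without WT clone 2 or 3 or any one of P28 clones 1 to 3, and 2 of 10 by limma on log2(TPM + 1), while DESeq2 gave 6. In P4M the count rose from 1 to 3 without P4M clone 1 or WT clone 5. All 8 genes with an ERSE had negative values in P28, between -1.52 and -0.37, and 3 of the 8 (37.5%) were called lower there, close to the 10 lower (35.7%) of the 28 genes whose window lacked the motif. The background was 19.7%. In P4M 1 of the 8 (12.5%) was called lower, against a background of 23.6%.

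**Figure D3:**
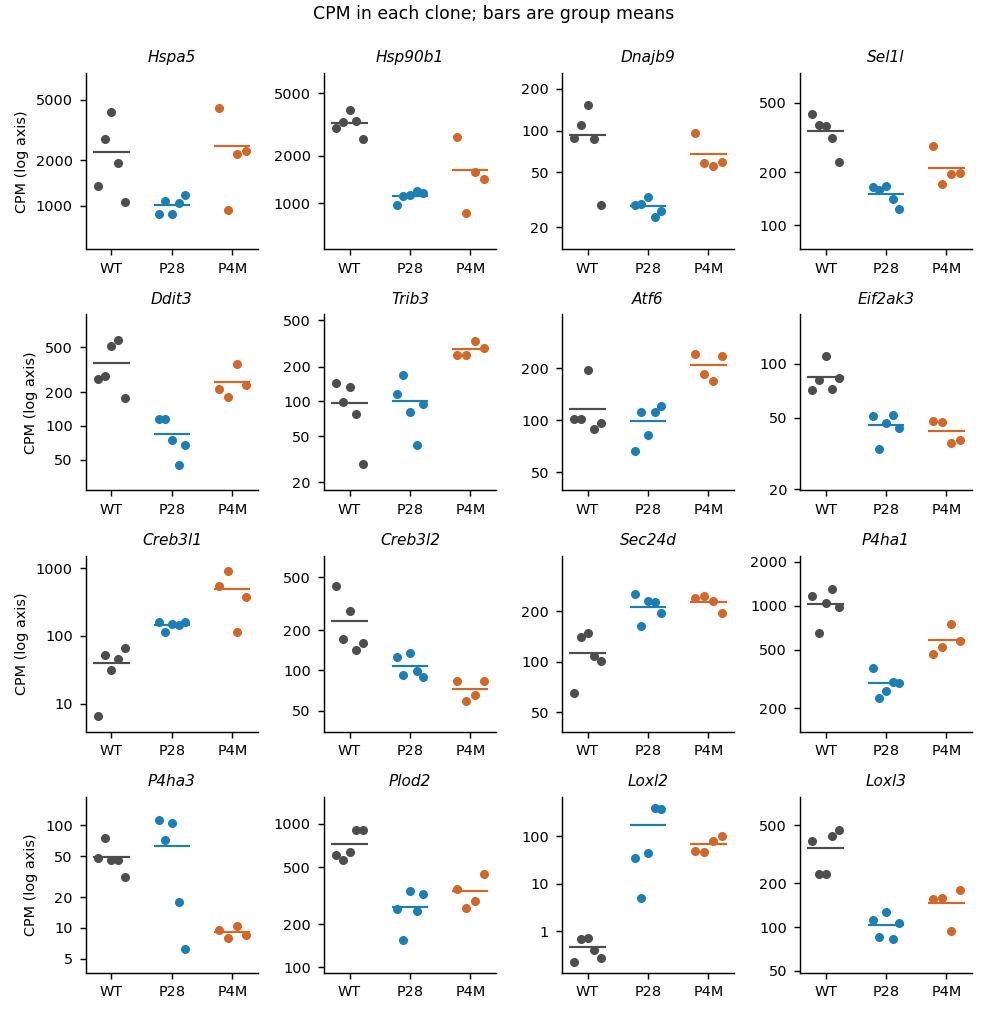
CPM of 16 of the 47 genes in the 14 clones on log axes, with 1 point per clone in the order of clone number and a bar at each group mean. P28 clones are low and close together for Hspa5 and Hsp90b1, the 4 P4M clones lie above all P28 clones for Ddit3, Trib3 and Atf6, and the 9 cKO clones lie above all WT clones for Creb3l1, Sec24d and Loxl2.

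Disulfide isomerases form and rearrange disulfide bonds in the ER. Of the 4, Pdia4 was lower in P28 and none passed the test in P4M. Pdia4 stood at 348, 576, 615, 387 and 366 CPM in WT, at 235, 193, 239.9, 295 and 277 CPM in P28, and at 579, 176, 225 and 279.8 CPM in P4M. P28 did not overlap WT, and of the P4M clones only clone 1 reached WT levels. Pdia4 fell by 0.89 ± 0.29 in P28 (edgeR adjusted p = 0.028), a call lost without WT clone 2 or 3 or any one of P28 clones 1 to 3 (highest adjusted p 0.066). In the mean of both cKO groups it fell by 0.71 ± 0.25 (edgeR adjusted p = 0.031), lost without WT clone 2 or 3 or any one of P4M clones 2 to 4 (highest adjusted p 0.089). Both Pdia4 calls were lost by limma on log2(TPM + 1), at adjusted p values of 0.13 in P28 and 0.090 in all cKO, and the latter with no count filter (adjusted p = 0.057). P4hb, which is both a disulfide isomerase and the beta subunit of the collagen prolyl 4-hydroxylase, had -0.12 ± 0.22 in all cKO (adjusted p = 0.66). Pdia3, the isomerase that works with calnexin and calreticulin, had -0.48 ± 0.20 (edgeR adjusted p = 0.059). Pdia6 had -0.40 ± 0.33 in all cKO (edgeR adjusted p = 0.33) and did not pass. Pdia3 was called lower without WT clone 1 (-0.65, adjusted p = 0.0074) or P4M clone 1 (-0.61, adjusted p = 0.019).

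The stress sensors and transcription factors did not move as a block. Among the sensors, Eif2ak3 (chr6:70844515-70905245), which encodes PERK, was lower in both cKO groups. It was at 71.6, 81.1, 111, 72.8 and 83.8 CPM in WT, 51.2, 33.6, 46.9, 51.7 and 44.0 CPM in P28, and 48.2, 47.5, 36.3 and 37.6 CPM in P4M. No cKO clone reached the lowest WT clone. Eif2ak3 fell by 0.89 ± 0.16 in P28 (edgeR adjusted p = 0.00095) and by 0.99 ± 0.17 in P4M (adjusted p = 0.00057). Both calls held in all 14 fits with 1 clone left out. Ern1, which encodes IRE1, was at 52.8 to 209.7 CPM in WT, 36.1 to 144 CPM in P28 and 77.1 to 90.1 CPM in P4M. These ranges overlapped, and Ern1 did not pass the test in P28 (-0.84 ± 0.41, edgeR adjusted p = 0.13) or in P4M (-0.65 ± 0.44, adjusted p = 0.25). It did in P28 without P28 clone 2 (adjusted p = 0.024). Atf6 (chr1:170704674-170867771), whose product is cleaved in the Golgi to release a transcription factor, differed between the cKO groups. It was at 102, 102, 194, 89.3 and 96.6 CPM in WT and at 66.8, 112, 82.2, 112 and 121 CPM in P28. In P4M it was at 241, 186, 169 and 235 CPM, above every P28 clone and above every WT clone except WT clone 3. Atf6 rose by 0.83 ± 0.24 in P4M against WT (edgeR adjusted p = 0.014) and was -0.24 ± 0.23 in P28 (adjusted p = 0.43).

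The transcription factor CHOP, encoded by Ddit3 (chr10:127290774-127296288), acts downstream of PERK. Ddit3 stood at 259, 279, 515, 577 and 176 CPM in WT, at 116, 115, 75.4, 45.4 and 67.5 CPM in P28 and at 212, 182, 356 and 233 CPM in P4M. P28 lay below every WT and every P4M clone, while P4M overlapped WT throughout. It fell by 2.11 ± 0.36 in P28 (edgeR adjusted p = 0.00072), the largest fall among the 47 genes in that comparison, and was -0.56 ± 0.37 in P4M (adjusted p = 0.24). Trib3, a pseudokinase induced by CHOP, was at 146, 98.9, 134, 78.3 and 29.0 CPM in WT, 116, 169, 81.8, 42.0 and 94.9 CPM in P28, and 253, 252, 332 and 290.3 CPM in P4M. Every P4M clone exceeded every WT and P28 clone. Trib3 rose by 1.54 ± 0.42 in P4M against WT (edgeR adjusted p = 0.0092).

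Creb3l1 and Creb3l2 encode related ER membrane-bound transcription factors, of which CREB3L1 (OASIS) is known for driving type I collagen expression in osteoblasts and CREB3L2 (BBF2H7) for supporting secretion in chondrocytes. They moved in opposite directions. Creb3l1 (chr2:91982328-92024502) was at 6.61, 51.9, 31.9, 46.0 and 66.8 CPM in WT, at 159.7, 115, 152, 143 and 160.4 CPM in P28, and at 549, 902, 114 and 378 CPM in P4M. All cKO clones were above all WT clones, and P4M clone 3 was near the lowest P28 clone. Creb3l1 rose by 1.84 ± 0.54 in P28 (edgeR adjusted p = 0.017) and by 3.58 ± 0.59 in P4M (adjusted p = 0.00046). Creb3l2 was at 429, 172, 279, 142 and 162 CPM in WT, 126, 91.7, 134, 98.3 and 89.0 CPM in P28, and 83.3, 59.0, 65.9 and 82.6 CPM in P4M. The 3 ranges did not overlap, with WT highest and P4M lowest. Creb3l2 fell by 1.13 ± 0.28 in P28 (edgeR adjusted p = 0.0062) and by 1.704 ± 0.31 in P4M (adjusted p = 0.00074), and the step from P28 to P4M, -0.57 ± 0.30, missed the threshold (adjusted p = 0.24). The calls against WT for both genes held in all 14 fits with 1 clone left out, and the Creb3l2 call in P28 was lost by limma on log2(TPM + 1) (-0.70, adjusted p = 0.064).

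ER-associated degradation extracts misfolded proteins and tags them with ubiquitin. Sel1l (chr12:91806043-91849157), the adaptor of the HRD1 ubiquitin ligase, was at 434, 375, 371, 317 and 230.4 CPM in WT, 166, 159, 167, 140.4 and 124 CPM in P28, and 284, 172, 195 and 197 CPM in P4M. All cKO clones were below all WT clones except P4M clone 1, which exceeded WT clone 5. Sel1l fell by 1.19 ± 0.18 in P28 (edgeR adjusted p = 0.00038) and by 0.70 ± 0.20 in P4M (adjusted p = 0.010). Edem1, a lectin that hands over misfolded glycoproteins, fell by 0.52 ± 0.18 in P28 (edgeR adjusted p = 0.036), with P28 at 75.5 to 112 CPM and WT at 107 to 200.4 CPM. That call was lost without WT clone 3 or any one of P28 clones 1 to 3 (highest adjusted p 0.085), and also with no scaling factor, no count filter, only the groups compared and limma on log2(TPM + 1) (adjusted p 0.067 to 0.47). Syvn1, the ligase HRD1 itself, and Herpud1 did not pass the test against WT in either cKO group.

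Among the translocation and export genes, the COPII coat subunit Sec24d (chr3:123267455-123365641) was higher and the cargo receptor Mia3, which loads bulky procollagen into carriers, was lower. Sec24d stood at 65.2, 140.5, 149, 109 and 102 CPM in WT, at 254, 163, 229.9, 228 and 195 CPM in P28 and at 240.0, 246, 231 and 196 CPM in P4M, with no overlap between WT and cKO. It rose by 0.92 ± 0.20 in P28 (edgeR adjusted p = 0.0032) and by 1.01 ± 0.21 in P4M (adjusted p = 0.0019). Mia3 stood at 225, 221, 314, 260.2 and 232 CPM in WT, at 157, 159, 167, 168 and 157 CPM in P28 and at 199, 159, 189 and 183 CPM in P4M, again with no overlap. It fell by 0.63 ± 0.12 in P28 (edgeR adjusted p = 0.0012) and by 0.46 ± 0.13 in P4M (adjusted p = 0.0093). Limma on log2(TPM + 1) lost both Mia3 calls (adjusted p = 0.069 in P28 and 0.057 in P4M), and no count filter lost the one in P4M (adjusted p = 0.058). Sec61a1, the channel subunit, rose by 0.61 ± 0.20 in P4M (edgeR adjusted p = 0.023), a call lost without WT clone 4 or P4M clone 1 (highest adjusted p 0.086) and with only the groups compared (adjusted p = 0.076). In all cKO it rose by 0.48 ± 0.17 (adjusted p = 0.031), a call lost in 8 of 14 fits, namely without WT clones 1, 2, 4 or 5, P28 clones 3, 4 or 5, or P4M clone 1 (highest adjusted p 0.087). Sec61b and Sec23a did not pass the test against WT.

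Collagen prolyl 4-hydroxylase stabilizes the triple helix, and P4ha1, P4ha2 and P4ha3 encode its alternative catalytic subunits. P4ha1 (chr10:59323296-59373304) had the lowest adjusted p of the 47 genes in all cKO against WT. It was at 1158, 649, 1038, 1296 and 975 CPM in WT, at 379, 236, 264, 302 and 298 CPM in P28, and at 470.4, 525, 747 and 578 CPM in P4M. P28 was lowest without overlap, and P4M lay between, with P4M clone 3 above WT clone 2. P4ha1 fell by 1.79 ± 0.20 in P28 (edgeR adjusted p = 5.4e-05) and by 0.82 ± 0.21 in P4M (adjusted p = 0.0069). P4ha3 (chr7:100285520-100319699) followed another order. It was at 48.5, 76.1, 45.8, 46.5 and 31.1 CPM in WT, at 112, 71.6, 105, 17.7 and 6.22 CPM in P28 and at 9.62, 8.03, 10.3 and 8.55 CPM in P4M. P28 split into 3 clones within or above the WT range and 2 below it, whereas P4M was low throughout. The 2 low P28 clones, 4 and 5, are those with the highest adipocyte list, and the part of that in the result was not tested. P4ha3 fell by 2.44 ± 0.65 in P4M (edgeR adjusted p = 0.0084) and had 0.33 ± 0.57 in P28 (adjusted p = 0.68). P4ha2 did not pass the test in either group. Ppib, the isomerase cyclophilin B that works with the prolyl 3-hydroxylase complex, fell by 0.60 ± 0.22 in all cKO (edgeR adjusted p = 0.035), with WT clones 1 and 5, at 245 and 286 CPM, as low as cKO. The Ppib call was lost in 8 of 14 fits, without WT clones 2, 3 or 4, P28 clones 2 or 5, or P4M clones 2, 3 or 4 (highest adjusted p 0.12), with no count filter and by limma on log2(TPM + 1). P3h1 and Crtap, the other members of that complex, did not pass.

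Lysyl hydroxylases prepare collagen for glycosylation and crosslinking. Plod2 (chr9:92542223-92608428), which acts on telopeptide lysines, was at 611, 558, 637, 902 and 912 CPM in WT, 254, 156, 339.8, 249 and 324 CPM in P28, and 354, 261, 290.2 and 447 CPM in P4M. No cKO clone reached WT. Plod2 fell by 1.45 ± 0.23 in P28 (edgeR adjusted p = 0.00048) and by 1.10 ± 0.25 in P4M (adjusted p = 0.0033). Plod1 and Plod3, its paralogues, did not pass the test. Fkbp10, a collagen chaperone needed for telopeptide hydroxylation by LH2, the Plod2 product, was called in the other direction. Fkbp10 was at 168, 334, 328, 510.0 and 244 CPM in WT, 438, 373, 447, 612 and 734 CPM in P28, and 603, 736, 333 and 591 CPM in P4M. The groups overlapped. Fkbp10 rose by 0.78 ± 0.27 in all cKO (edgeR adjusted p = 0.028), a call lost without WT clone 1 or 5 or P4M clone 2 (highest adjusted p 0.067). In P4M alone it rose by 0.84 ± 0.31 (edgeR adjusted p = 0.041), and that call was lost in 9 of 14 fits, without WT clones 1, 2, 3 or 5, P28 clones 1 or 3, or P4M clones 1, 2 or 4 (highest adjusted p 0.12), and with only the groups compared (adjusted p = 0.069). Fkbp14 fell by 0.91 ± 0.29 in all cKO (edgeR adjusted p = 0.021) and by 1.16 ± 0.37 in P4M (adjusted p = 0.021), although WT clone 1, at 33.4 CPM, was as low as the lowest cKO clones. The other WT clones had 102 to 140.1 CPM. The Fkbp14 calls were lost without WT clone 2 or 3 in all cKO (highest adjusted p 0.059) and without P4M clone 3 or 4 in P4M (highest adjusted p 0.066), and by limma on log2(TPM + 1) in both (adjusted p 0.15 and 0.065).

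The lysyl oxidases crosslink collagen and elastin outside the cell, and among them Loxl2 showed the widest difference of the 47 genes against WT. Loxl2 (chr14:69609068-69695834) was very low in WT, at 0.228, 0.689, 0.728, 0.398 and 0.277 CPM, which correspond to 7, 18, 18, 14 and 7 counts. It was at 34.6, 5.12, 44.9, 400.3 and 379.8 CPM in P28 and at 48.4, 46.7, 79.3 and 101 CPM in P4M. Every cKO clone was above every WT clone, but P28 clones themselves ranged widely, with clones 4 and 5 far above the other three. The same clones stood apart in the adipocyte list (210.2 and 467 TPM, against 16.2 to 27.1 TPM in P28 clones 1 to 3), and its part in the Loxl2 values was not tested. Loxl2 rose by 8.55 ± 1.17 in P28 (edgeR adjusted p = 0.00019) and by 7.22 ± 1.13 in P4M (adjusted p = 0.00032). The WT counts were so few that the size of this fitted change is uncertain. Loxl3 went the other way, at 390.4, 229.8, 233, 419 and 462 CPM in WT, 111, 85.5, 127, 82.5 and 107 CPM in P28, and 156, 159, 93.6 and 181 CPM in P4M. No cKO clone reached WT. Loxl3 fell by 1.76 ± 0.24 in P28 (edgeR adjusted p = 0.00018) and by 1.24 ± 0.26 in P4M (adjusted p = 0.0018). The Loxl2 and Loxl3 calls held in all 14 fits with 1 clone left out.

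Lox, the founding family member, was at 3.84 CPM in WT clone 1 and at 3213, 1503, 3028 and 2293 CPM in WT clones 2 to 5. It was at 717 to 2390.2 CPM in P28 and 1010.3 to 1291 CPM in P4M. Lox did not pass the test (-0.56 ± 0.75 in all cKO, edgeR adjusted p = 0.56), and limma on log2(TPM + 1) gave it the opposite sign. Without WT clone 1 it was called lower (-0.90, edgeR adjusted p = 0.014). Loxl1 had the same low WT clone, at 0.749 CPM, followed by 102, 40.7, 13.8 and 30.2 CPM, and stood at 147, 225, 244, 159 and 113 CPM in P28 and at 39.3, 51.5, 121 and 60.9 CPM in P4M. All P28 clones were above all WT clones, while P4M overlapped both. Loxl1 rose by 2.24 ± 0.78 in P28 (edgeR adjusted p = 0.036), a call lost in 7 of 14 fits, without WT clones 3, 4 or 5 or any one of P28 clones 1 to 4 (highest adjusted p 0.077), with no count filter (adjusted p = 0.062) and with only the groups compared (adjusted p = 0.071). In P4M it had 0.86 ± 0.79 (edgeR adjusted p = 0.39). Loxl4 did not pass.

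**Figure D4:**
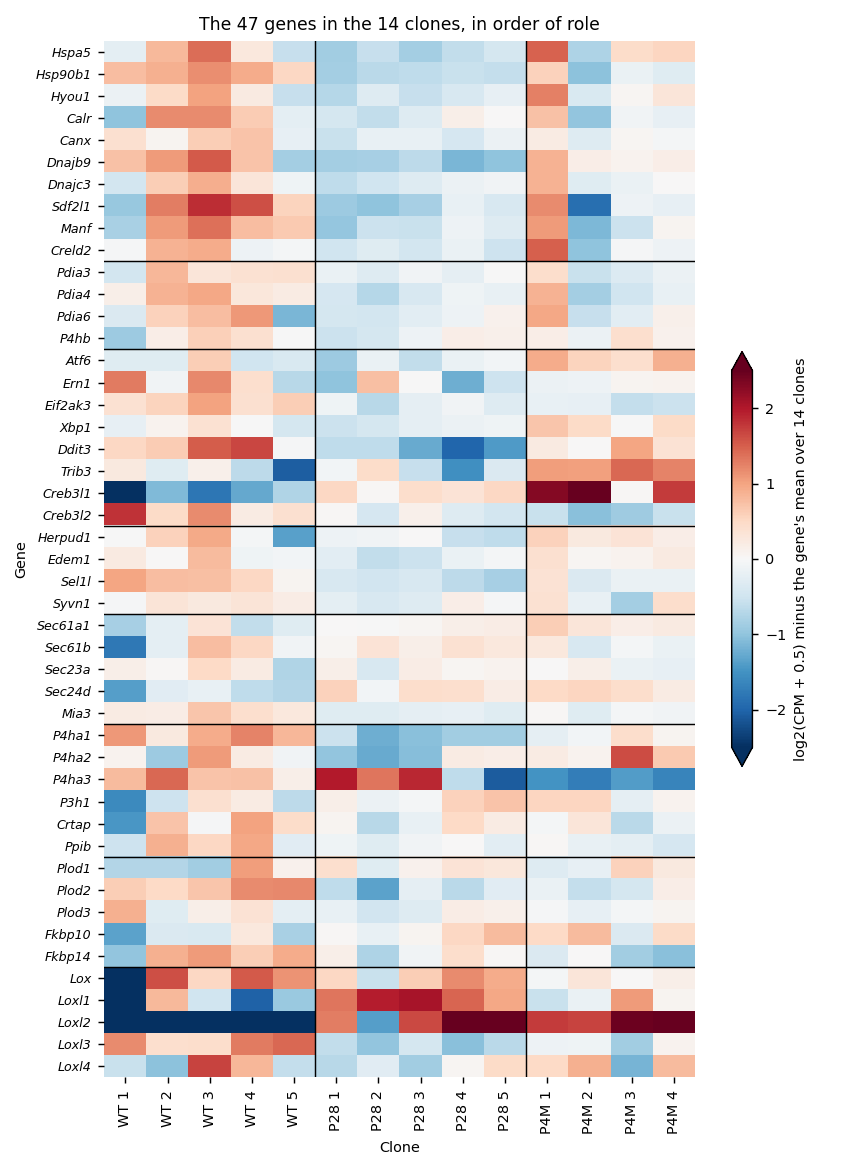
Level of the 47 genes (ordered by role, black lines between roles) in the 14 clones (black lines between groups), as log2(CPM + 0.5) minus the gene's mean over the 14 clones, red above the mean and blue below it. Most chaperones are blue across the P28 clones and red in P4M clone 1, and Loxl2 is dark blue in all 5 WT clones.

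The direct comparison of P4M with P28, which have one genotype and one submission number, asked which of the 47 genes differed with age at isolation. By the sample labels, passage also differed in part between these groups. Atf6, Xbp1, Ddit3, Trib3, Dnajb9 and P4ha1 were higher in P4M, and P4ha3 was lower. Log2 fold changes were 1.07 ± 0.24 for Atf6 (edgeR adjusted p = 0.022), 0.72 ± 0.18 for Xbp1 (adjusted p = 0.032), 1.55 ± 0.37 for Ddit3 (adjusted p = 0.026) and 1.48 ± 0.42 for Trib3 (adjusted p = 0.048). Xbp1, the transcription factor whose mRNA is spliced by IRE1, stood at 75.9, 81.2, 94.2, 99.9 and 103 CPM in P28 and at 180.1, 154, 109.8 and 155 CPM in P4M, with no overlap. WT, at 81.0 to 145 CPM, overlapped both. In P4M against WT, Xbp1 missed the threshold (edgeR adjusted p = 0.061). It was called higher by DESeq2 (adjusted p = 0.048) and by edgeR with no scaling factor (adjusted p = 0.046) or no count filter (adjusted p = 0.044). The same held for edgeR without WT clone 3 (adjusted p = 0.021) or P4M clone 3 (adjusted p = 0.023). Gene counts do not separate the spliced from the unspliced form. Dnajb9 differed by 1.25 ± 0.34 (edgeR adjusted p = 0.041), P4ha1 by 0.97 ± 0.21 (adjusted p = 0.017) and P4ha3 by -2.77 ± 0.66 (adjusted p = 0.027). These were called against a background in which few genes passed, 3.34% higher and 3.88% lower.

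All 10 chaperones had positive values in this comparison (median 0.67, against -0.01 over all tested genes), and Dnajb9 was the single one called. The clones were not uniform. Summed TPM of the 10 was 8325, 2284, 4260 and 4518 in P4M clones 1 to 4, against 2857 to 3996 in P28. Hspa5 had 1.29 ± 0.42 (edgeR adjusted p = 0.077), and was called higher by DESeq2 (adjusted p = 0.025) and by edgeR with only the groups compared (adjusted p = 0.038). Creb3l1, at 1.74 ± 0.56 (edgeR adjusted p = 0.074), was called by the same alternatives (adjusted p = 0.018 and 0.032) and without WT clone 1 or P4M clone 3. P4ha1 was the one gene of the 7 that was called in all 14 fits with 1 clone left out. The Atf6 call was lost without P28 clone 1 or 3 or P4M clone 1 or 4 (highest adjusted p 0.064), and the Ddit3 call without P28 clone 3 or P4M clone 3 or 4 (highest adjusted p 0.068). P4ha3 was lost without P28 clone 1 or 3 or any one P4M clone (highest adjusted p 0.075), and Xbp1 without any one of P28 clones 1 to 3 or P4M clones 1, 2 or 4 (highest adjusted p 0.098). Dnajb9 was lost without any one clone of either cKO group, with a highest adjusted p of 0.12 without P4M clone 1. Trib3 was lost without WT clones 2, 3 or 4, P28 clones 1, 3, 4 or 5, or any one P4M clone (highest adjusted p 0.11). Limma on log2(TPM + 1) lost Xbp1, Dnajb9 and Trib3 (adjusted p 0.12, 0.088 and 0.059), no scaling factor lost Dnajb9 and Trib3, and no count filter lost Trib3.

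Of 8 secreted matrix genes that this machinery serves, 3 were higher and 2 lower in all cKO, against 23.1% and 25.7% of all tested genes. Col1a1, the main chain of type I collagen, was at 154, 7.61, 2.39, 1.45 and 1029 CPM in WT, at 22012, 14742, 20524, 14680.0 and 17270.5 CPM in P28 and at 27145, 50643, 7377 and 15466 CPM in P4M. Every cKO clone was above every WT clone, and Col1a1 rose by 6.47 ± 1.58 in all cKO (edgeR adjusted p = 0.0045). The size rests on WT clone 5, without which it was 9.003. Col1a2, the partner chain, was at 0.0326, 0.842, 0.485, 0.797 and 4354 CPM in WT and at 7793 to 33256 CPM in cKO clones, without overlap. It did not pass the test (4.32 ± 2.10, edgeR adjusted p = 0.11), but passed it without WT clone 5 (14.97, adjusted p = 7.5e-07), by DESeq2 (adjusted p = 0.013) and by limma on log2(TPM + 1) (adjusted p = 6.5e-05). Col2a1, the chain of cartilage collagen, was at 228, 5033, 6465, 21551 and 1498 CPM in WT, at 974, 592, 746, 1298 and 138 CPM in P28 and at 48.9, 42.3, 3.50 and 3.03 CPM in P4M. Its WT and P28 ranges overlapped, and P4M was lowest. Col2a1 fell by 5.68 ± 0.97 in all cKO (edgeR adjusted p = 0.00042). Col5a1, a minor fibrillar chain, rose by 2.84 ± 0.37 (edgeR adjusted p = 6.4e-05). Col5a2 rose by 1.53 ± 0.60 (edgeR adjusted p = 0.049), a call that held only without WT clone 1 or P4M clone 3 among the 14 fits (highest adjusted p 0.096 without WT clone 4), and that was lost with no count filter. Fn1, which encodes fibronectin, fell by 0.99 ± 0.39 (edgeR adjusted p = 0.0499), a call lost without WT clone 3 or 4, any one of P28 clones 1 to 4 or any one P4M clone (highest adjusted p 0.26 without WT clone 3) and with RLE scaling, no scaling factor, no count filter and limma on log2(TPM + 1). Col3a1 (1.36 ± 1.41, adjusted p = 0.45) and Sparc (0.31 ± 0.48, adjusted p = 0.62) did not pass, and Col3a1 turned to -1.02 without P4M clone 3.

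Set beside the prolyl 4-hydroxylase genes P4ha1, P4ha2 and P4ha3, collagen mRNA was more abundant in all cKO clones except P4M clone 3 than in WT. No ratio to the other modifying enzymes was computed. The 6 fibrillar collagen genes together had 152, 2167, 2413, 5716 and 2695 TPM in WT clones 1 to 5. They had 15492, 8785, 13785, 12825 and 12222 TPM in P28 clones 1 to 5 and 14461, 24130, 5420 and 9499 TPM in P4M clones 1 to 4. P28 lay wholly above WT, and P4M clone 3 was just below the highest WT clone. Per TPM of P4ha1, P4ha2 and P4ha3 combined, fibrillar collagen TPM was 0.201 to 8.35 in WT (median 4.32), 34.6 to 43.6 in P28 (median 35.03) and 6.84 to 60.3 in P4M (median 27.5). WT and P28 did not overlap in this ratio, and P4M clone 3 was within the WT range. Serpinh1, the collagen-specific chaperone HSP47, which is outside the 47 genes, had 0.22 ± 0.27 in all cKO (edgeR adjusted p = 0.54).

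**Figure D5:**
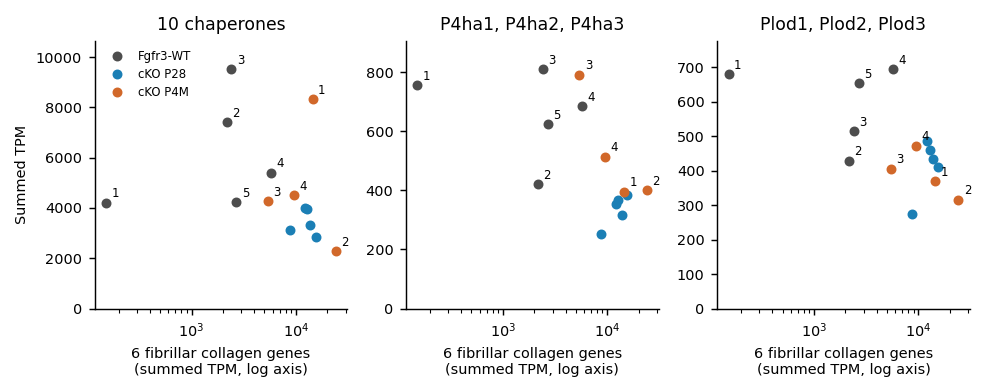
Summed TPM of the 10 chaperones (left), of P4ha1, P4ha2 and P4ha3 (middle) and of Plod1, Plod2 and Plod3 (right) against the summed TPM of the 6 fibrillar collagen genes on a log axis, with 1 point per clone and WT and P4M clones numbered. P28 clones combine 8785 to 15492 TPM of collagen RNA with chaperone sums of 2857 to 3996 TPM, while P4M clones range from 2284 to 8325 TPM in chaperones.

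Other genes of the same pathways, taken from lists that do not overlap the 47, gave 10 higher (11.6%) and 26 lower (30.2%) of 86 tested in all cKO, against 23.1% and 25.7% of all tested genes. In P28 7 were higher (8.14%) and 22 lower (25.6%), against 19.2% and 19.7%. In P4M 9 of the 86 were higher and 20 lower (23.3%), against 22.3% and 23.6%. Between P4M and P28, edgeR called 3 higher (3.49%) and 0 lower, against 3.34% and 3.88%, and 15 of the 86 (17.4%) had an unadjusted p under 0.05, as did 25.8% of all tested genes. The shares of genes lower thus lay near the background in P4M. The median log2 fold change of the 86 genes in all cKO was -0.13. The counts of the separate lists that follow are for all cKO, where the background was 23.1% higher and 25.7% lower. Of 11 further degradation genes, 1 was higher and 5 lower in all cKO. The lectin gene Os9, which delivers misfolded glycoproteins to SEL1L, had 636, 938, 882, 1307 and 757 CPM in WT, 217, 185, 216, 199.97 and 173 CPM in P28, and 213, 215, 181 and 163 CPM in P4M. No cKO clone came near WT, and Os9 fell by 2.21 ± 0.15 (edgeR adjusted p = 8.4e-07). Selenos fell by 1.18 ± 0.17 (adjusted p = 0.00013). Of 20 further folding enzymes, 1 was higher and 6 lower, with Fkbp9 (-1.79 ± 0.22, edgeR adjusted p = 4.5e-05) and the BiP nucleotide exchange factor Sil1 (-1.48 ± 0.26, adjusted p = 0.00046) lowest in p.

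Of 15 further translocation and signal peptide genes, 2 were higher and 5 lower in all cKO. The signal peptidase subunit Sec11c fell by 1.23 ± 0.19 (edgeR adjusted p = 0.00021), and Ssr2, of the translocon-associated complex, rose by 1.28 ± 0.21 (adjusted p = 0.00026). Of 19 COPII and retrieval genes, 4 were higher and 3 lower, led by Sec24b (0.62 ± 0.11, edgeR adjusted p = 0.0005) and Sec16a (0.57 ± 0.15, adjusted p = 0.0064). Of 12 collagen modification and processing genes, 2 were higher and 4 lower. The 2 higher were the procollagen proteinases Adamts2 (edgeR adjusted p = 0.0012) and Bmp1 (2.29 ± 0.33, adjusted p = 0.00014), which are named here after their values were seen. Adamts2 was at 0 to 11.4 CPM in WT, 47.01 to 116 CPM in P28 and 149 to 479 CPM in P4M, and Bmp1 at 44.9 to 153 CPM in WT and 203 to 674 CPM in cKO, without overlap. Colgalt2, a collagen galactosyltransferase, was at 22.2, 12.2, 28.2, 51.7 and 0.317 CPM in WT and at most 0.158 CPM in any cKO clone, so that WT clone 5 was close to the cKO clones (edgeR adjusted p = 1.3e-05). P3h4 fell by 1.47 ± 0.20 (adjusted p = 7.4e-05). Of 9 tested stress response genes, 0 were higher and 3 lower, among them the protease gene Mbtps2, whose product cleaves ATF6 (-0.50 ± 0.11, edgeR adjusted p = 0.0021, lost by limma on log2(TPM + 1) at 0.18), and Creb3l4, which was below 2 CPM in every clone (-0.91 ± 0.34, adjusted p = 0.041, lost in 9 of 14 fits with 1 clone left out, with a highest adjusted p of 0.22). Between P4M and P28, the 3 called genes were Ppp1r15a, the phosphatase subunit GADD34 that reverses the PERK signal, at 1.59 ± 0.33 (edgeR adjusted p = 0.015), Sec63 at 0.54 (adjusted p = 0.029) and Sec11c at 0.88 (adjusted p = 0.038). The Ppp1r15a call held in all 14 fits with 1 clone left out. Sec63 was lost without P28 clone 1 or 3 or P4M clone 1, 2 or 4 (highest adjusted p 0.077), and Sec11c without any one of P28 clones 1 to 4 or P4M clones 1, 3 or 4 (highest adjusted p 0.11). Both were also lost with no scaling factor and by limma on log2(TPM + 1). Ppp1r15a stood at 51.9, 78.4, 46.97, 35.7 and 33.8 CPM in P28 and at 131, 114, 188 and 163 CPM in P4M, without overlap.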

How the data were processed

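Bulk RNA was sequenced from 14 clones (5 WT, 5 P28, 4 P4M) as single-end reads. The authors aligned reads to mm10 with TopHat and Bowtie2, after FastQC, and counted them per gene with HTSeq. Versions are not given in the sources used here. The deposited counts are whole reads per gene, and the deposited TPM values are scaled to gene length and library size by the authors. Other deposited tables hold the authors' own fold changes and p-values and were not used. Members and lists were chosen with earlier results of these data known. They were the 47 named genes, the 2 genes of lowest adjusted p in each further pathway list, genes of those lists called between P4M and P28, collagen cargo and label checks.

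Counts were filtered (filterByExpr by group), TMM-scaled and fitted in one model of the 3 groups with edgeR 4.0.16 (R 4.3.3, quasi-likelihood F-test, Benjamini-Hochberg over 17358 genes, threshold 0.05). All cKO is the mean of the P28 and P4M coefficients. No batch term was possible. SE is the absolute log2 fold change divided by the square root of F. TPM served for levels compared between genes and for sums over gene lists and their ratio, which were compared across clones. It also served for the limma alternative (limma 3.58.1, log2 of TPM plus a pseudocount of 1). CPM per clone uses TMM-scaled totals. The code was tested on simulated counts. Alternatives were DESeq2 1.42.0, RLE or no scaling, other count filters, only the groups compared, a minimum change of 1 on the log2 scale, limma on TPM and leaving out each clone. Gene positions are from GENCODE on mm10 and promoter windows from RefSeq (GRCm38.p6). Ddit3 has 2 identifiers in the TPM table, and the one in the count table was used. Planned features of the member proteins were not analysed here, and 1 marker gene is not reported here.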

Additional observations from a re-analysis of the deposited data

Results flagged for a closer look

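In 5 of the 141 combinations of gene and group examined, 1 clone lay far from the others of its group by Dixon's criterion, where chance gives about 1 in 20. Dnajb9 was high in P4M clone 1 (96.1 CPM), Atf6 was high in WT clone 3 (194 CPM), Sec23a was low in P28 clone 2 (98.6 CPM), Fkbp14 was low in WT clone 1 (33.4 CPM) and Lox was low in WT clone 1 (3.84 CPM). The low Fkbp14 and Lox values were in the same WT clone, which was also the lowest WT clone for Loxl1.

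The P4M and P28 clones, which differ in age at isolation and, by the sample labels, in part in passage, differed in 7 of the 47 genes by the direct edgeR quasi-likelihood test. Of the 47 genes 12.8% were higher and 2.13% lower, against 3.34% and 3.88% of all tested genes. An unadjusted p under 0.05 was found for 29.8% of the 47 genes and 25.8% of all tested genes. No WT group of the older age is among the samples, so the comparison shows a difference between cKO groups and not between effects of the deletion. The differences on the log2 scale were 1.25 for Dnajb9, 1.07 for Atf6, 0.72 for Xbp1, 1.55 for Ddit3, 1.48 for Trib3, 0.97 for P4ha1 and -2.77 for P4ha3. All 7 are described above with the clones on which their calls rest.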

How the results depend on the processing

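Limits. Genotype, submission, age at isolation, time in culture and survival in culture cannot be told apart against WT. The animals behind the clones are not known. The p-values set group differences against the spread between clones, not between mice. At these depths 3 counts are about 0.1 CPM in a WT clone, which limits Loxl2 and Colgalt2. No paired analysis was possible because the labels give the groups no shared replicate numbers.

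For all cKO against WT, members higher went from 5 to 8 by limma and 2 at a minimum change of 1 on the log2 scale, and to 3 to 7 with 1 clone left out (3 without WT clone 1 or 5). Members lower went from 16 to 9 and 8, and to 11 to 20. All genes called went from 8467 to 4723 at that minimum (7668 to 8744). For P28, higher went from 4 to 7 by limma (3 to 5), lower from 16 to 8 (12 to 21) and all genes from 6750 to 4040 at that minimum (5805 to 7253). For P4M, higher went from 7 to 4 at that minimum (5 to 8), lower from 10 to 5 (9 to 14) and all genes from 7969 to 5149 (6799 to 8454). Between P4M and P28, higher went from 6 to 10 with only the groups compared and 3 by limma (1 to 7), lower from 1 to 3 with only the groups compared (0 to 1), and all genes from 1254 to 2607 by DESeq2 and 3051 with only the groups compared (480 to 2132). The other alternatives stayed within 1.5 times. Limma on TPM shifted the median of all genes by 0.21, 0.30, 0.13 and -0.17 in these comparisons. Lox in all cKO changed sign to 0.99 by limma on TPM (adjusted p = 0.50). Hspa5 in P4M ranged from -0.31 to 0.47 with 1 clone left out and became -0.03, -0.05 and -0.31 without WT clone 1, WT clone 5 and P4M clone 1, and Col3a1 in all cKO ranged from -1.02 (without P4M clone 3) to 2.04. The causes were not tested. A fit of only the groups compared is the same as the reported one for all cKO.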
